A study of Mus musculus with 8 samples.

Results

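The genes described are the glutathione transferases, UDP-glucuronosyltransferases and sulfotransferases of the mouse. They were taken from the RefSeq gene table for GRCm38.p6 as the protein-coding genes whose symbols start with Gsta, Gstm, Gstp, Gstt, Gsto, Gstk, Gstz, Mgst, Ugt1, Ugt2, Ugt3 or Sult. The rule gave 67 genes of the 21631 protein-coding genes on autosomes and chromosome X, with 25 glutathione transferases, 21 UDP-glucuronosyltransferases and 21 sulfotransferases. Chromatin immunoprecipitation with antibodies to Mta2, Mbd3 or Zbtb7a was followed by sequencing in renal cortex of mice aged 2 months. All 8 libraries, 2 for each antibody and 2 of Input chromatin, carry the genotype Mta2flx/flx, in which loxP sites flank both Mta2 alleles, and the labels name no Cre. Mta2 and Mbd3 are subunits of the NuRD complex, which couples nucleosome remodelling to histone deacetylation, and Zbtb7a is a DNA-binding regulator with zinc fingers. The deposited data are 3 peak lists, 1 per factor, with 149855 Mta2, 134248 Mbd3 and 124616 Zbtb7a intervals on these chromosomes. A list combines the mice of a group, so no value has an SD or an n, and no test was made. The read depth behind each list was not analysed here, and intervals of low fold are the least certain.

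These enzymes attach a charged group to reactive or fat-soluble compounds, which the kidney can then excrete. Glutathione transferases join the tripeptide glutathione to electrophiles. UDP-glucuronosyltransferases, bound to the endoplasmic reticulum, add glucuronic acid from UDP-glucuronic acid, and cytosolic sulfotransferases move a sulfonate group from the donor PAPS to hormones, bile acids and drugs. Many of these genes lie side by side as tandem copies, and the Ugt1 genes are alternative first exons that are spliced to a shared 3′ part.

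A gene was called occupied by a factor when a peak summit lay in it or within 1 kb of its ends. Of the 67 genes, 55 (82.1%) were occupied by Mta2, against 77.7% of all protein-coding genes. Mbd3 occupied 54 (80.6%, all genes 76.5%) and Zbtb7a occupied 50 (74.6%, all genes 76.0%). Some genes overlap and were counted through the same summits. With only summits that lay in 1 member window, the counts were 45, 44 and 40 of 67. The shares of all genes were not recomputed in that way. All 3 factors were found at 49 of the 67 (73.1%, all genes 74.7%), and none at 10 (all genes 21.2%). The transferases as a whole were therefore occupied at close to the share of all genes, and the families within them lay far apart. Of the glutathione transferases, 23 of 25 held all 3 factors and 1 held none. The UDP-glucuronosyltransferases divided into 16 of 21 with all 3 and 2 with none, and the sulfotransferases into 10 of 21 with all 3 and 7 with none.

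The same order was seen in the density of peaks. Over the merged windows of each class, Mta2 summits numbered 21.6 per 100 kb at glutathione transferases, 14.0 at UDP-glucuronosyltransferases and 5.21 at sulfotransferases, against 8.87 for all genes. The densities for Mbd3 were 20.5, 10.7 and 5.36, with 8.05 for all genes. For Zbtb7a they were 20.5, 12.4 and 4.20, with 7.59 for all genes. The sulfotransferases were not uniform: the Sult2a genes gave 382.1 of their 690.8 kb and 6 of the 7 genes with no factor. Sult2a windows held 1 Mta2, 2 Mbd3 and 1 Zbtb7a summits. Sult1 genes had 13.1, 15.4 and 11.6 per 100 kb, and the sulfotransferases outside Sult1 and Sult2 had 8.83, 6.79 and 6.11. Window lengths differ and were not held equal, with 351.4 kb in 24 glutathione transferase windows and 1064900 kb in 16547 windows of all genes. Genes of 1 cluster share their neighbourhood and are not independent observations. The tissue was whole cortex, so a peak cannot be assigned to a cell type, and weaker binding and binding in fewer cells cannot be told apart.

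**Figure D1:**
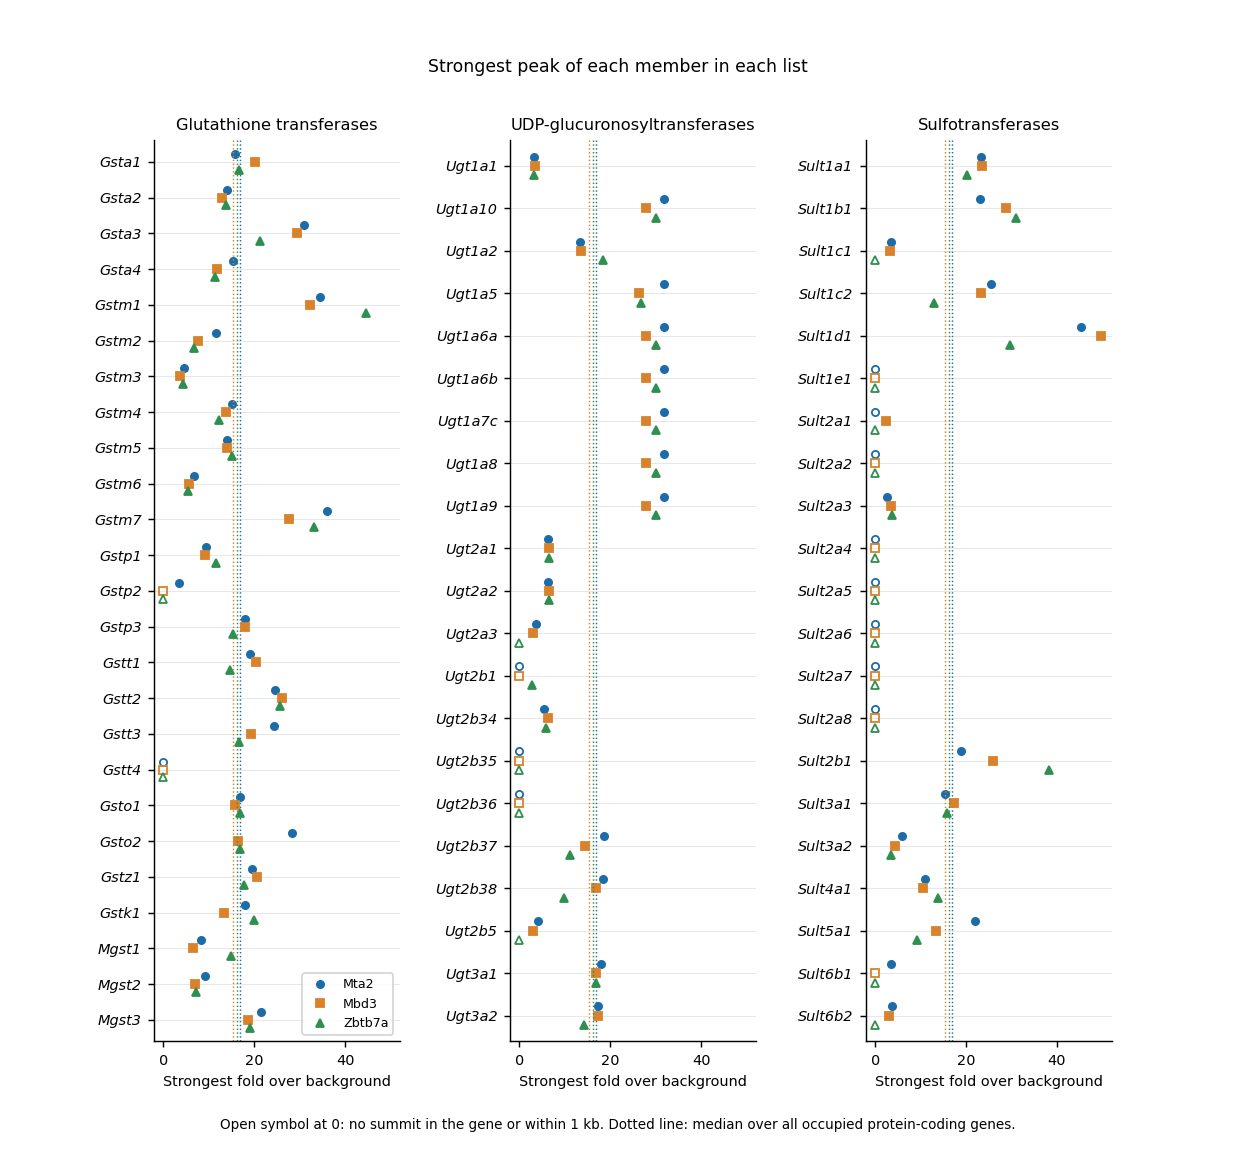
Strongest fold over background (x axis, the authors' value for a peak) of each of the 67 genes (y axis) in the Mta2, Mbd3 and Zbtb7a lists; open symbols at 0 mark genes with no summit in the gene or within 1 kb, and dotted lines mark the median over all occupied genes of each list. Nearly all glutathione transferases carry filled symbols, the Sult2a genes are mostly open, and Sult1d1 reaches the highest Mta2 and Mbd3 folds, 45.3 and 49.8.

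The strength of a peak is given as its fold over background, a ratio computed by the authors' peak caller and comparable only within a list. The strongest peak of an occupied member had a median fold of 17.4 for Mta2, 16.0 for Mbd3 and 15.6 for Zbtb7a. Over all occupied genes these medians were 16.8, 15.4 and 16.2. Above the all-gene median lay 29 of the 55 members occupied by Mta2, 28 of 54 for Mbd3 and 24 of 50 for Zbtb7a. Within each list, most Ugt1 genes shared the same strongest peak, with folds of 31.9, 27.8 and 30.2. The Mta2 peak lay at another site than the Mbd3 and Zbtb7a peaks. These shared peaks enter the medians and counts once for each such gene, which raises them. Only Sult1d1 reached the highest 5% of occupied genes, with Mta2 and Mbd3, a limit passed by 4.95% of occupied genes in each of these lists. By their strongest peaks, the transferases thus stood near the middle of the range of all occupied genes.

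The start of a gene was taken from the RefSeq promoter table, which lists at least 1 start for 59 of the 67 genes. Within 1 kb of a listed start, Mta2 had a summit at 40 of the 59 (67.8%, all genes 67.8%), Mbd3 at 37 (62.7%, all genes 66.5%) and Zbtb7a at 36 (61.0%, all genes 66.5%). All 3 factors lay at the starts of 35 genes, 59.3% of the 59, against 64.0% of all genes. No factor lay near the starts of 19, or 32.2%, against 30.2%. At occupied starts the median folds were 12.6 for Mta2, 13.4 for Mbd3 and 11.4 for Zbtb7a. Each was below the median over all genes, which was 15.3, 14.1 and 14.9. By class, all 3 factors were at the start of 19 of 23 glutathione transferases, 10 of 19 UDP-glucuronosyltransferases and 6 of 17 sulfotransferases. Gsta4, Gstt2, Sult2a1, Sult2a2, Sult2a7, Sult4a1, Ugt1a6b and Ugt3a2 have no entry in that table.

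The promoter sequences of 5 glutathione transferase genes are shown first, because they include the strongest starts of the class and weak ones beside them. Each run is the 250 bases before the listed start, 5′ to 3′, from RefSeq for GRCm38.p6. Capitals mark matches, on either strand, to motif letters searched for in the promoter windows: GCGTG (core of the xenobiotic response element), TATAAA (a core promoter element) and GGGCGG (binding letters of Sp1).
Gstm1 (chr3:108017974-108018223, minus strand): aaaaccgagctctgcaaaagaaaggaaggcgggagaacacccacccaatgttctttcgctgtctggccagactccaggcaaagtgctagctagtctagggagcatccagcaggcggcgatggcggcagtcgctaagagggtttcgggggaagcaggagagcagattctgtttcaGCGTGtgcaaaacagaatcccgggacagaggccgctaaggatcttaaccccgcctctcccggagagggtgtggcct
Gstm7 (chr3:107931818-107932067, minus strand): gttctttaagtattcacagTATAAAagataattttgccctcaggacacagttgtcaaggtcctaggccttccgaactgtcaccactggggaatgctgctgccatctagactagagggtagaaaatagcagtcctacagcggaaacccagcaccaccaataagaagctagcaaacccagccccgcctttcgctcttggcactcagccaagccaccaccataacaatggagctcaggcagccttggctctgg
Gstm3 (chr3:107969175-107969424, minus strand): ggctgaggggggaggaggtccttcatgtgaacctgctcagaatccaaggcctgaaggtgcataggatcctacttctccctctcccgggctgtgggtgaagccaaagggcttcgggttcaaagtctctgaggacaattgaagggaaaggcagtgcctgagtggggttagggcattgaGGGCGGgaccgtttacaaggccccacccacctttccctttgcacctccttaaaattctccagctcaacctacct
Gstp1 (chr19:4037913-4038162, minus strand): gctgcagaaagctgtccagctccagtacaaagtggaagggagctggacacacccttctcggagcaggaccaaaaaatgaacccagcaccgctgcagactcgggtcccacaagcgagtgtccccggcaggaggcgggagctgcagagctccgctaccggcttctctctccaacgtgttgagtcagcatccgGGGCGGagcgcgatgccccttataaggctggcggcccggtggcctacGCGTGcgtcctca
Gstp2 (chr19:4042222-4042471, minus strand): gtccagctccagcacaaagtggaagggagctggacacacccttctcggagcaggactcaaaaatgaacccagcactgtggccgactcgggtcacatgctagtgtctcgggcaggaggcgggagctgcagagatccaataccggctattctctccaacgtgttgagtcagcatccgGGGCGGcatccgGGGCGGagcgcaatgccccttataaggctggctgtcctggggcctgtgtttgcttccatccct

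The Gstm genes encode the mu class, cytosolic enzymes that conjugate epoxides and quinones, and lie in a row on chromosome 3. All 7 held all 3 factors both in the gene window and at a listed start. Gstm1, the major mu enzyme of mouse liver, had a start fold of 34.4 for Mta2, 32.1 for Mbd3 and 44.5 for Zbtb7a. Its Mta2 interval, chr3:108017285-108018929, has its summit 43 bp before the start. Gstm7 had 35.9, 27.7 and 33.2, with the Mta2 summit 7 bp after the start. These were the strongest starts of the cluster in each list.

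The other mu genes formed a series of falling strength. The start of Gstm4 had folds of 15.0 for Mta2, 13.8 for Mbd3 and 12.2 for Zbtb7a, and that of Gstm5 had 11.9, 10.9 and 10.9. At Gstm2 the start folds were 11.5, 7.65 and 6.67. At Gstm6 they were 6.79, 5.59 and 5.33, and at Gstm3 they were lowest, at 4.48, 3.52 and 4.34. Gstm1 and Gstm3, printed above, thus both carried all 3 factors, with strongest Mta2 peaks at percentiles 91.4 and 6.5 of occupied genes. The placing of reads that match several mu copies is not given in the sources used here. Over the 151.3 kb of the cluster there were 26 Mta2, 25 Mbd3 and 25 Zbtb7a summits, or 17.2, 16.5 and 16.5 per 100 kb, against 4.92, 4.41 and 3.99 over the whole of chromosome 3.

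**Figure D2:**
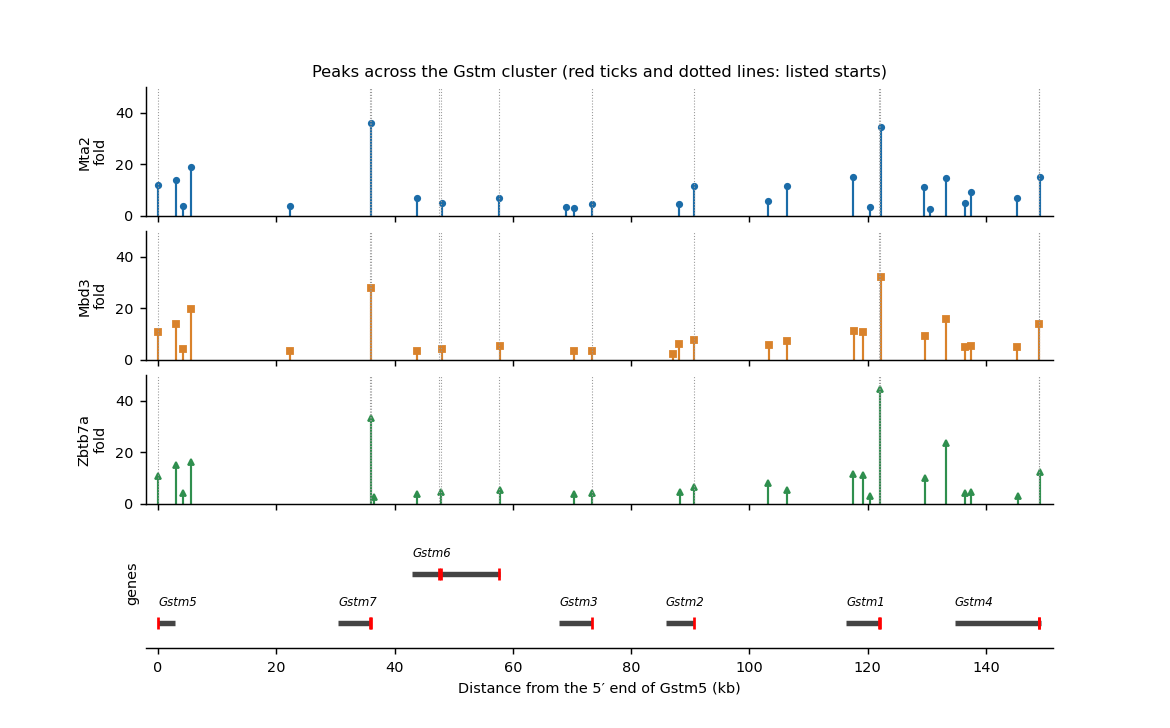
Peak summits (vertical lines, height is fold over background) of Mta2, Mbd3 and Zbtb7a along the Gstm cluster, by distance in kb from the 5′ end of Gstm5; grey bars are genes, and red ticks and dotted lines are listed starts. The tallest lines of all 3 factors stand at the starts of Gstm7 and Gstm1, and those at Gstm3 are low.

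Neighbouring copies of the pi class differed in their calls. Gstp1, a main pi enzyme known for detoxifying electrophiles and for its induction by them, had start folds of 9.37 for Mta2, 9.13 for Mbd3 and 11.6 for Zbtb7a. Gstp2, the next gene on chromosome 19, had a Mta2 summit of fold 3.41, 118 bp before its start, and neither Mbd3 nor Zbtb7a. The promoter windows of the pair are 76.4% identical over 318 aligned columns, with 20 CpG dinucleotides at Gstp1 and 12 at Gstp2. Gstp3 had start folds of 5.28, 3.99 and 3.72, and its strongest peaks lay 2948 bp downstream of its listed start for Mta2 (fold 18.0) and 2947 bp for Mbd3 (17.9) and Zbtb7a (15.3). The summits of those strongest peaks lay outside the gene, past its 3′ end and near the edge of the 1 kb window. How reads that match several copies were placed is not given in the sources used here, and its part in these differences was not tested.

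The alpha class conjugates peroxidised lipids and carries bilirubin and steroids. Gsta3 had the strongest start of the class, with folds of 31.0 for Mta2, 29.4 for Mbd3 and 21.2 for Zbtb7a. Gsta1 had its strongest summits 783, 796 and 825 bp upstream of its start, with folds of 15.7, 20.1 and 16.6. At Gsta2 the listed start held weak Mta2 (4.07) and Mbd3 (3.42) summits and no Zbtb7a summit, and the strongest Mta2 peak of the gene (14.0) lay 4454 bp inside. Gsta4, which detoxifies the lipid peroxidation product 4-hydroxynonenal, had strongest folds of 15.4, 11.8 and 11.4. All 4 alpha genes were occupied by all 3 factors.

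The theta genes lie together on chromosome 10. Gstt2 had the highest folds of the class, 24.5 for Mta2, 26.0 for Mbd3 and 25.7 for Zbtb7a. Gstt3 followed for Mta2 with 24.3, in a peak just past its 3′ end and 161 bp from the listed start of the neighbouring Ddt, and had start folds of 15.5, 14.2 and 14.0. Gstt1 had start folds of 6.14, 6.98 and 7.52 and stronger peaks inside the gene, reaching 19.1, 20.4 and 14.6. Gstt4, between Gstt1 and Gstt2, was the only glutathione transferase with no peak of any factor. A stretch of 30.0 kb spanning it held no summit in any of the 3 lists.

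The remaining glutathione transferases each held all 3 factors. Gstz1, which also acts as maleylacetoacetate isomerase in tyrosine breakdown, had start folds of 19.6, 20.6 and 17.8 for Mta2, Mbd3 and Zbtb7a, in peaks to which the nearest listed start is that of its neighbour Pomt2. Gstk1, the mitochondrial and peroxisomal kappa enzyme, had 17.8, 13.3 and 19.9. Gsto1 and Gsto2, omega enzymes that reduce dehydroascorbate, lie head to tail on chromosome 19. The start of Gsto2 had folds of 16.9, 15.8 and 16.7, that of Gsto1 had 9.58, 8.64 and 7.88, and the strongest Mta2 peak of Gsto2 (28.4) lay 21068 bp from the nearer of its listed starts, past the 3′ end. The strongest peaks in the Gsto1 window are those at the Gsto2 start.

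Mgst1, Mgst2 and Mgst3 are membrane-bound enzymes of a separate family that conjugate lipids and reduce lipid peroxides. Mgst3 had start folds of 15.7 for Mta2, 13.4 for Mbd3 and 19.0 for Zbtb7a, and its strongest Mta2 peak (21.5) lay 18627 bp inside the gene. Mgst1 has a pair of listed starts: its strongest Mta2 (8.16) and Mbd3 (6.49) summits lay 344 and 329 bp before the downstream start, and its strongest Zbtb7a summit (14.9) lay 60 bp before the upstream start. Mgst2 had no summit within 1 kb of its listed start, and its strongest peaks, of fold 9.18, 6.85 and 7.23, lay 8231 bp (Mta2) and about as far for the others upstream of that start, within the gene window. Mgst2 and Gstt4 were the only glutathione transferases with a listed start and no factor near it.

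The Ugt1 genes occupy 1 locus on chromosome 1, where 9 genes begin at their own first exon and end together. Bilirubin is conjugated by the Ugt1a1 enzyme, and Ugt1a6a conjugates small planar phenols. Because windows of the 9 genes overlap, a summit near the shared end counts for all of them, and 7 of the 9 had the same strongest Mta2 peak. The locus is therefore described by distinct summits. Over its 166.6 kb there were 40 Mta2, 30 Mbd3 and 36 Zbtb7a summits, or 24.0, 18.0 and 21.6 per 100 kb, against 5.15, 4.57 and 4.16 over chromosome 1. Of the 40 Mta2 summits, 28 had summits of both other factors within 200 bp.

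Most of the strong peaks of the Ugt1 locus lay away from the listed starts. The strongest Mta2 peak (fold 31.9, chr1:88195397-88196217) had its summit 140.4 kb from the start of Ugt1a10, with Mbd3 at 26.4 and Zbtb7a at 26.8. The next (30.3, chr1:88143687-88144671) lay 88.9 kb along and held Mbd3 at 27.8 and Zbtb7a at 30.2, their highest values in the locus. Further Mta2 peaks of 26.5 and 23.3 lay 65.2 and 50.6 kb along. Of the 8 Mta2 peaks with a fold over 15, 1 lay within 1 kb of a listed start, that of Ugt1a7c, and 7 lay farther. Only gene ends and listed starts were at hand, so whether these lie in exons or introns is not given.

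The listed starts of the Ugt1 genes differed among themselves. Ugt1a7c and Ugt1a2 had the strongest, with folds of 17.5 and 13.3 for Mta2, 18.7 and 13.6 for Mbd3, and 11.2 and 18.5 for Zbtb7a. Ugt1a10 had 8.55, 10.1 and 5.43, and Ugt1a6a had 9.02, 8.33 and 5.88. At Ugt1a1 the start folds were low, at 3.27, 3.38 and 2.83, and at Ugt1a9 they were 2.61, 2.22 and 3.78. The start of Ugt1a5 held Mta2 (2.82) and Zbtb7a (2.56) and no Mbd3, and that of Ugt1a8 held none. The longest stretch without a Mta2 summit, 24.1 kb, spans the Ugt1a8 start, and the Ugt1a8 calls in the gene window rest on peaks farther along the locus.

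**Figure D3:**
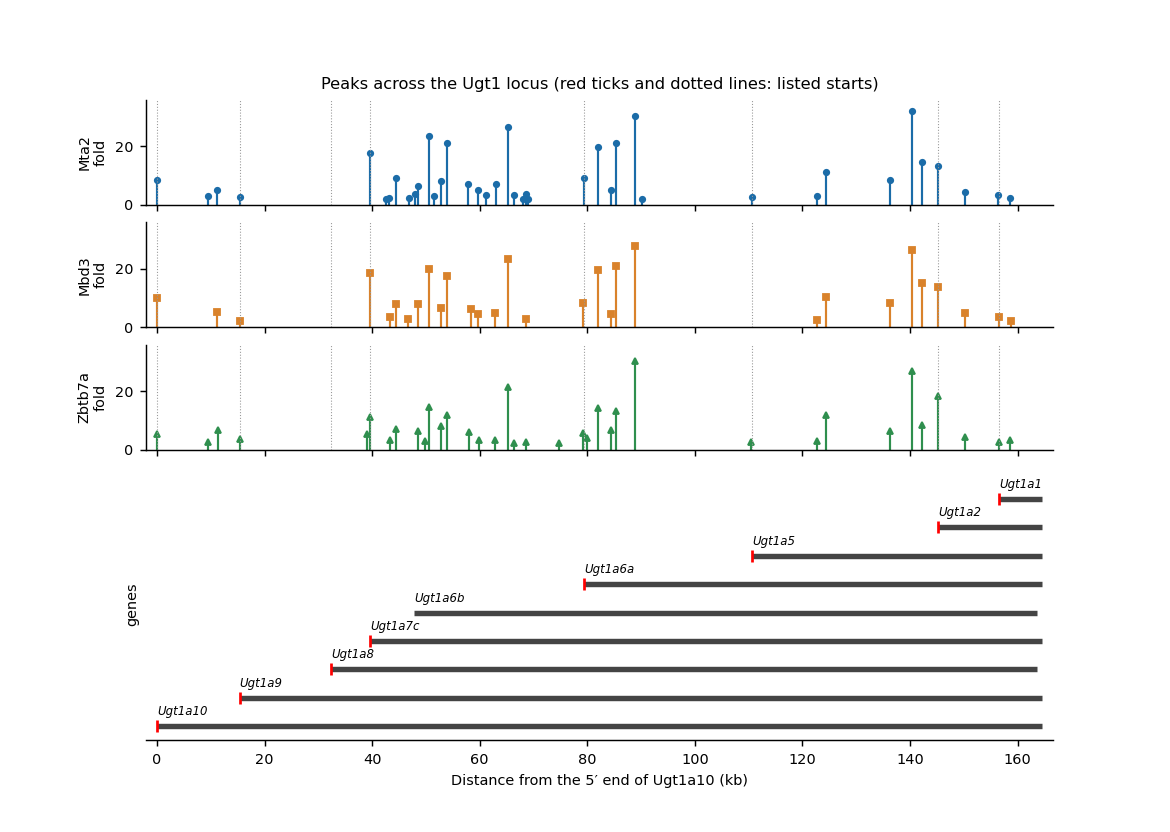
Peak summits (vertical lines, height is fold over background) of Mta2, Mbd3 and Zbtb7a along the Ugt1 locus, by distance in kb from the 5′ end of Ugt1a10; grey bars are genes, and red ticks and dotted lines are listed starts. The tallest Mta2 lines, 31.9 and 30.3, stand between listed starts, and the region from 15.5 to 39.6 kb holds no Mta2 summit.

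The Ugt2 genes, whose enzymes conjugate steroids, bile acids and fatty acids, share a region of 703.8 kb on chromosome 5 with Sult1b1, Sult1d1 and Sult1e1. The region held 48 Mta2, 44 Mbd3 and 38 Zbtb7a summits, or 6.82, 6.25 and 5.40 per 100 kb, close to 6.12, 5.47 and 5.13 over chromosome 5. They were unevenly spread. A stretch of 229.5 kb held no Mta2 summit and contains Ugt2b1, Ugt2b35, Ugt2b36 and Ugt2b5 up to its start, while the starts of Ugt2b37 and Ugt2b38 were well occupied. The promoters of 4 of these copies are shown because they are similar in sequence and differ in occupancy. Each run is the 250 bases before the start from RefSeq for GRCm38.p6, and capitals mark bases that differ from, or have no aligned base in, the Ugt2b38 promoter.
Ugt2b38 (chr5:87424204-87424453, minus strand): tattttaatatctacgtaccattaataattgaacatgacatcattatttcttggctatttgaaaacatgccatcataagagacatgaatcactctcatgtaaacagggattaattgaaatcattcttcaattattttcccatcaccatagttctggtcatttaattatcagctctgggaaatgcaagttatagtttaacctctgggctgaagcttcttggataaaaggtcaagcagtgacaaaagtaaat
Ugt2b37 (chr5:87254789-87255038, minus strand): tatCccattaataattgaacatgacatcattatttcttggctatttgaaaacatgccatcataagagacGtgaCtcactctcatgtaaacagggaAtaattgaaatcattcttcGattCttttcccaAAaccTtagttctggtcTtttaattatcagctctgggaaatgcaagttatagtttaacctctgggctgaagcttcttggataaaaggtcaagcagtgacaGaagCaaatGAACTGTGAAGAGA
Ugt2b5 (chr5:87140341-87140590, minus strand): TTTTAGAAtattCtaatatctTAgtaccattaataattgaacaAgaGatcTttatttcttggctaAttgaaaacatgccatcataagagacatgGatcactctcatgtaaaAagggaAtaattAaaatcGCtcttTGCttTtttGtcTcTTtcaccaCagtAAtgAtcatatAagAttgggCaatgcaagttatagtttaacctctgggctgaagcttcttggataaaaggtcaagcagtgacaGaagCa
Ugt2b36 (chr5:87092556-87092805, minus strand): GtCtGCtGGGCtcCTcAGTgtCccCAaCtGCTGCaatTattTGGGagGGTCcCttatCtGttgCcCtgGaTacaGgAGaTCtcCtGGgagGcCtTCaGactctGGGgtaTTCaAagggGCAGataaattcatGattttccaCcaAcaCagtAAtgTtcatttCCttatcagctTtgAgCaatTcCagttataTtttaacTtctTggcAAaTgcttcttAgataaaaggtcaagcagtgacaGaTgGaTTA

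Ugt2b38 and Ugt2b37 had start folds of 18.4 and 18.6 for Mta2, 16.9 and 14.4 for Mbd3, and 9.90 and 11.1 for Zbtb7a. Their summits lay between 3 and 47 bp from the start. Their promoter windows, counted from 250 bases before to 50 after the start, are 86.9% identical. Ugt2b5, whose window is 84.2% identical to that of Ugt2b38, had a Mta2 summit of 4.07 and a Mbd3 summit of 3.02 at its start and no Zbtb7a summit. Ugt2b36, at 63.9% identity, had no peak of any factor. The printed runs of Ugt2b37, Ugt2b5 and Ugt2b36 carry 26, 38 and 89 capitals. Similar windows thus went with high folds in Ugt2b37 and low folds in Ugt2b5. How reads matching several of these copies were placed is not given in the sources used here, and its part in this contrast was not tested.

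Among the other Ugt2 genes, Ugt2b34 had start folds of 5.42 for Mta2, 6.34 for Mbd3 and 5.78 for Zbtb7a. Ugt2b1 held a Zbtb7a summit of 2.89 inside the gene and no other factor. Ugt2a1 and Ugt2a2 overlap and shared 1 summit per factor, of 6.26, 6.55 and 6.45, near their common 3′ part. Ugt2a3 held weak Mta2 (3.65) and Mbd3 (2.92) summits and no Zbtb7a. Of the 10 Ugt2 genes, 5 held all 3 factors in the window and 3 at the start, and 6 starts held none.

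Some of the strongest peaks of this region fell outside every gene window. At 3.5 kb upstream of Ugt2a3, summits had folds of 27.0 for Mta2, 30.4 for Mbd3 and 35.8 for Zbtb7a, the last being the highest Zbtb7a value of the region (chr5:87340075-87341069). At 8.3 kb upstream of Ugt2a1, the folds were 28.4, 35.5 and 16.0. Another site, with the Mta2 summit 25.8 kb downstream of the Ugt2a2 start and past that gene's 3′ end, had 28.7, 27.3 and 23.6. The sparse calls at Ugt2a3 and Ugt2a1 therefore hold for the windows used and not for their surroundings. Which gene such a peak bears on was not tested.

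**Figure D4:**
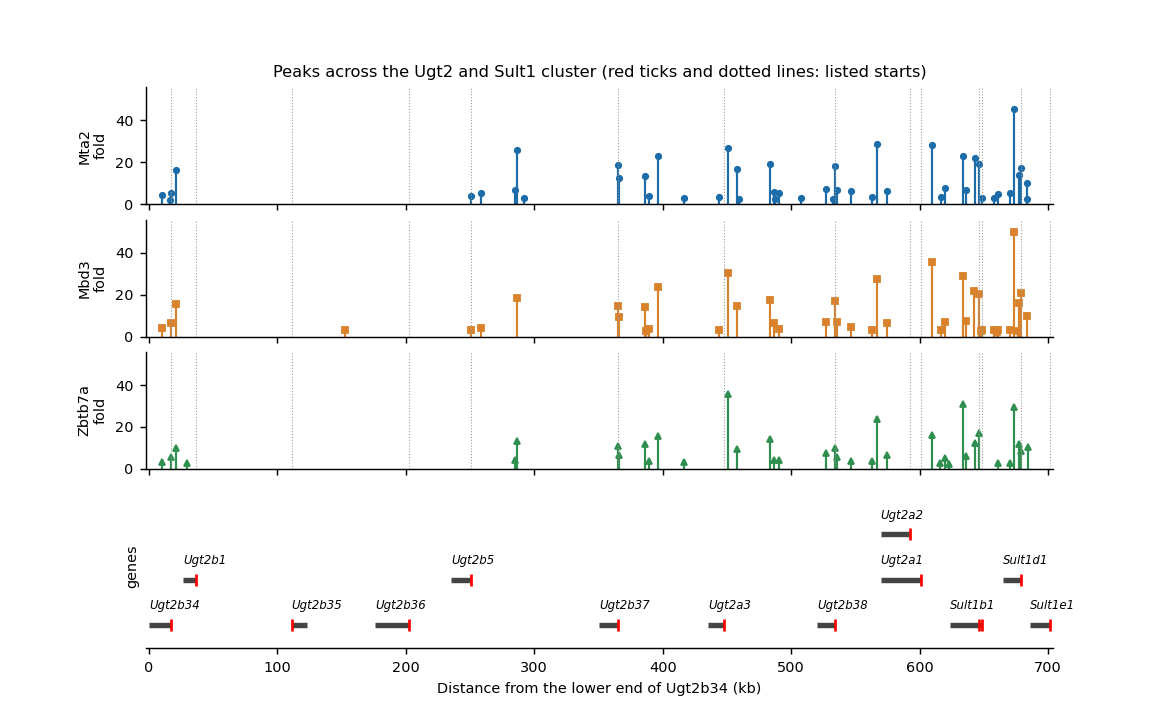
Peak summits (vertical lines, height is fold over background) of Mta2, Mbd3 and Zbtb7a along the Ugt2 and Sult1 cluster, by distance in kb from the lower end of Ugt2b34; grey bars are genes, and red ticks and dotted lines are listed starts. No Mta2 line stands between 21.1 and 250.6 kb, and the tallest Mta2 and Mbd3 lines, 45.3 and 49.8, stand inside Sult1d1.

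The remaining glucuronosyltransferase family has a pair of members, Ugt3a1 and Ugt3a2, on chromosome 15, whose enzymes use sugars other than glucuronic acid. Both held all 3 factors. Ugt3a1 had start folds of 16.5, 14.9 and 11.9 for Mta2, Mbd3 and Zbtb7a, and its strongest peaks, 17.9, 16.8 and 16.9, lay 3578, 3538 and 3567 bp inside. Ugt3a2 had strongest folds of 17.4, 17.3 and 14.3. The neighbours were close to each other in every list.

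Sult1d1 carried the strongest peak of all 67 genes in the Mta2 and Mbd3 lists. Its enzyme sulfonates catecholamines and other phenols. The promoters of Sult1d1 and of its neighbour Sult1e1, the oestrogen sulfotransferase, are shown because the neighbours lie at opposite ends of the range. Each run is the 250 bases before the start from RefSeq for GRCm38.p6. Capitals in Sult1d1 mark GTTAATAATT, a match to the HNF1 motif, which was searched with these letters and any base at the seventh, and a minus strand match to GCGTG, and Sult1e1 has no match to the motifs searched.
Sult1d1 (chr5:87569007-87569256, minus strand): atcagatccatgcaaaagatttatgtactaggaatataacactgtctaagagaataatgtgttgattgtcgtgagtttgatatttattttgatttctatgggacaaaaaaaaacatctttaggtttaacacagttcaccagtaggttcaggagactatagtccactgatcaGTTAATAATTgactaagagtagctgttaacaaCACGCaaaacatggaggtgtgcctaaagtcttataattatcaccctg
Sult1e1 (chr5:87591612-87591861, minus strand): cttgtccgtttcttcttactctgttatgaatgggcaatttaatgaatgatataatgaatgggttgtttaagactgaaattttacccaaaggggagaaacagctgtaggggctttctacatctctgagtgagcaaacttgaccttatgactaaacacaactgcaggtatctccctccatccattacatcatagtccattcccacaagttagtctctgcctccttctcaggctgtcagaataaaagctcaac

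The strongest Sult1d1 peaks lay inside the gene, 5838 bp from the start for Mta2 (fold 45.3, chr5:87562471-87563733), 5830 bp for Mbd3 (49.8) and 5850 bp for Zbtb7a (29.7). Against the strongest peaks of all occupied genes, these ranked at percentiles 97.6, 98.9 and 81.3. The start of Sult1d1 held all 3 factors at folds of 17.1, 20.9 and 8.56. Sult1e1, the next gene, had no summit of any factor in the gene or within 1 kb. Its nearest summits were of Mta2 (3.55) and Mbd3 (3.42), 1257 and 1274 bp beyond the gene, and of Zbtb7a (10.5) 2177 bp beyond. That Zbtb7a peak overlapped stronger Mta2 (9.98) and Mbd3 (9.71) peaks.

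The other Sult1 genes ranged as widely. Sult1a1, the main phenol sulfotransferase, had start folds of 23.3 for Mta2, 23.6 for Mbd3 and 20.2 for Zbtb7a. Sult1c2 had 25.5, 23.4 and 12.9, with summits 461, 444 and 446 bp upstream of its start. Sult1b1, which acts on thyroid hormones, had folds of 19.4, 20.2 and 17.3 at 1 of its 2 listed starts. Its other listed start, at the 5′ end of the gene, held weak Mta2 (2.79) and Mbd3 (2.93) summits and no Zbtb7a. A stronger site of Sult1b1, 12466 bp from the nearest listed start for Mta2, had 23.0, 28.7 and 30.9. Sult1c1 held weak Mta2 (3.55) and Mbd3 (3.22) summits far inside the gene and no Zbtb7a. Sult1a1, Sult1b1, Sult1c2 and Sult1d1 were the 4 Sult1 genes with all 3 factors.

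The Sult2a genes, which sulfonate bile acids and hydroxysteroids, formed the emptiest group. Over the 871.1 kb of their cluster on chromosome 7 there were 3 Mta2, 5 Mbd3 and 2 Zbtb7a summits, or 0.344, 0.574 and 0.23 per 100 kb, against 6.03, 5.49 and 5.30 over chromosome 7. Of the 8 genes, Sult2a2, Sult2a4, Sult2a5, Sult2a6, Sult2a7 and Sult2a8 had no peak. Sult2a3 held all 3 factors at 2.66, 3.37 and 3.71, the Mta2 summit 35491 bp inside the gene, and Sult2a1 held a Mbd3 summit of 2.42. No Sult2a gene with a listed start had a summit near it. Where no peak is listed, signal missed the authors' threshold, which does not show that the factor is absent, and how reads matching several of these copies were placed is not given in the sources used here.

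Sult2b1, which sulfonates cholesterol and lies elsewhere on chromosome 7, stood apart from the Sult2a genes. At 1 of its 2 listed starts the folds were 18.9 for Mta2, 25.9 for Mbd3 and 38.1 for Zbtb7a, within 24 bp of that position. The other listed start, inside the gene, had no factor within 1 kb. The Zbtb7a value was at percentile 90.7 of occupied genes and the Mta2 value at 58.1. Among the Sult2 genes with a listed start, Sult2b1 alone had a factor near a start.

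Of the 6 other sulfotransferase genes, Sult3a1, Sult3a2, Sult4a1 and Sult5a1 held all 3 factors. Sult5a1 reached the highest Mta2 fold of these (22.0, with Mbd3 13.5 and Zbtb7a 9.23), 7438 bp inside the gene for Mta2, and had weak summits of 3.96, 3.12 and 3.22 at its start. Sult3a1 had the highest Mbd3 (17.3) and Zbtb7a (15.9) folds, with Mta2 at 15.3, and the Mta2 summit lay 15063 bp from its listed start. Sult4a1, an orphan enzyme known mainly from brain, had 11.0, 10.6 and 13.9. Sult3a2 was called through 1 summit per factor, of 5.95, 4.33 and 3.38, outside the gene and between 816 and 933 bp from its end. Sult6b1 held Mta2 alone (3.38), and Sult6b2 held Mta2 (3.64) and Mbd3 (3.12).

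A few calls depend on the 1 kb window. The Sult3a2 summits lay near its inner edge. The Sult1e1 summits of Mta2 and Mbd3 lay nearest to it on the outer side. Farther out were a Mbd3 (21.1) and a Zbtb7a (24.5) summit 2263 and 2270 bp from Sult6b1, and the Zbtb7a summit 3464 bp from Ugt2a3. Sult6b1 and Ugt2a3, which lacked Zbtb7a in the window, thus had strong Zbtb7a peaks within 5 kb.

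In all, 8 genes held 1 or 2 factors, and 4.11% of all genes did so. Mta2 and Mbd3 without Zbtb7a were found at Sult1c1, Sult6b2, Ugt2a3 and Ugt2b5, Mta2 alone at Gstp2 and Sult6b1, Mbd3 alone at Sult2a1 and Zbtb7a alone at Ugt2b1. The folds in these 8 genes lay between 2.42 and 4.07, at or below percentile 5.4 of the strongest peaks of occupied genes. Among the transferases, partial occupancy was therefore seen only with weak peaks.

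The peaks of the transferases overlapped between lists at shares close to or somewhat above those of the lists as a whole. Of 170 Mta2 peaks assigned to members, 85.3% shared at least 1 bp with a Mbd3 peak (whole list 80.5%) and 81.8% with a Zbtb7a peak (72.4%). Of 153 Mbd3 peaks, 96.7% overlapped Mta2 (92.8%) and 87.6% Zbtb7a (80.6%). Of 152 Zbtb7a peaks, 96.1% overlapped Mta2 (92.0%) and 90.8% Mbd3 (88.8%). Exact 95% binomial (Clopper-Pearson) intervals served as the tolerance for recomputed shares. They cover counting error only and treat peaks as independent, which peaks of 1 cluster are not. No difference from a whole list was therefore read from them. The members' peaks also had higher median folds than their lists, 6.84 against 5.21 for Mta2, 6.99 against 5.02 for Mbd3 and 6.86 against 5.00 for Zbtb7a. They were wider too, with medians of 570.5, 546 and 510 bp against 450, 422 and 393 bp, and neither width nor fold was held equal when overlap was counted.

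The promoter windows, 300 bases from 250 before to 50 after each listed start, were poor in CpG dinucleotides. The 71 windows of the members held a median of 3 CpG, against 13 over the 21045 windows of all protein-coding genes. Glutathione transferase windows held a median of 8, UDP-glucuronosyltransferase windows 2 and sulfotransferase windows 1.5. Among windows with 0 or 1 CpG, 5 of 21 member windows had all 3 factors within 1 kb (23.8%), against 9.35% of all such windows. With 2 to 4 CpG the count was 16 of 25 (64.0%, all 22.9%), with 5 to 9 it was 10 of 10 (all 46.8%), and with 10 or more it was 13 of 15 (86.7%, all 88.5%). Below 10 CpG, the members were thus occupied more often than all windows of like CpG count, though windows of 1 gene and of neighbouring copies share peaks.

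**Figure D5:**
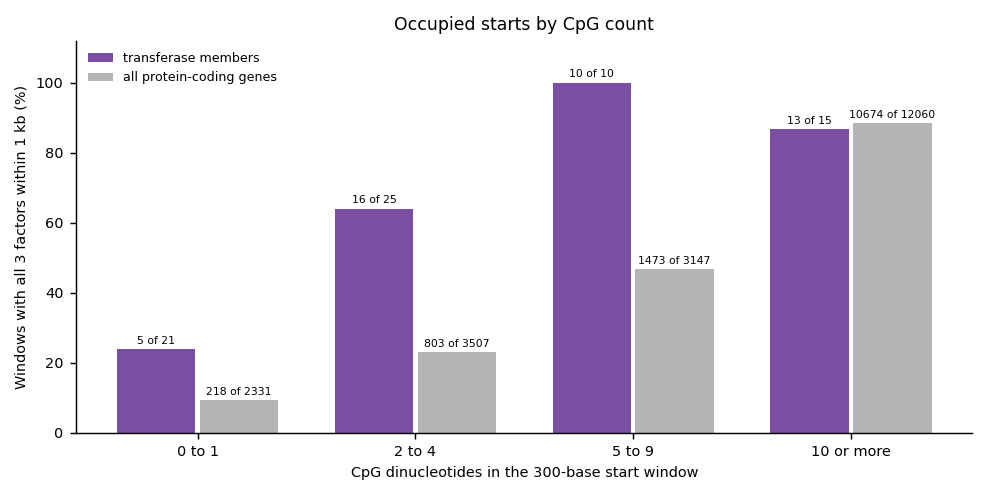
Share of 300-base start windows with all 3 factors within 1 kb (y axis, percent, bars from 0) by the number of CpG dinucleotides in the window (x axis), for the transferases (purple) and all protein-coding genes (grey), with counts above the bars. The purple bar is the taller in the 3 lower classes, and the bars are close at 10 or more CpG.

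Motif letters were counted in the same windows on both strands, as a description of sequence and not of binding. The HNF1 motif, known from liver and kidney genes, was in 8 of 71 member windows (11.3%) and in 0.375% of all windows. Its 8 genes were Sult1d1, Sult2a3, Sult2a4, Sult2a5, Sult2a6, Ugt1a1, Ugt1a9 and Ugt1a10. Some of these windows are similar copies and not independent. Those of Sult2a3 and Sult2a5 are 74.9% identical, and those of Ugt1a9 and Ugt1a10 are 70.9% identical. The 4 Sult2a starts among them had no factor within 1 kb, and the other 4 had all 3 factors. The match was therefore found at starts of both kinds. The antioxidant response element core TGACNNNGC, the letters of the Nrf2 site, was in 4 member windows (5.63%, all 13.0%), those of Gsta3, Gstm5, Gstm7 and Mgst1, and in Gstm7 it lay in the window of another listed start than the 1 printed. TATAAA was in 22.5% (all 12.7%), GCGTG in 19.7% (all 38.8%) and GGGCGG in 26.8% (all 46.7%), and CAAAGTCCA, the HNF4 letters, in 1 window, that of Sult1b1 (1.41%, all 0.456%).

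Other genes of the conjugation pathways were taken from a list of 55, all of them found in the gene table. The list was written with earlier results of these data known, so its values describe the genes chosen and not the pathways at large. All 3 factors occupied 53 of these, against 74.7% of all genes. Their median strongest folds, 24.7 (Mta2), 23.1 (Mbd3) and 23.9 (Zbtb7a), were each above those of the transferases. The exceptions were Nat1, an arylamine acetyltransferase with no peak, and Nr1i3, the xenobiotic receptor CAR, with weak Mta2 (2.92) and Zbtb7a (2.67) summits and no Mbd3.

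The genes that make and recycle glutathione were all occupied, 19 of 19. Gss, the glutathione synthetase, had strongest folds of 49.9 for Mta2, 58.9 for Mbd3 and 51.1 for Zbtb7a, and Ggt1, the brush border enzyme that cleaves glutathione, had 48.1, 50.9 and 76.0. Of 11 sensor genes, 10 held all 3 factors. Rxra, the partner of several xenobiotic receptors, had 59.3, 49.8 and 44.5, and Nfe2l2, which encodes Nrf2, had 45.6, 44.2 and 57.3. These 4 genes were the highest of their groups in each list.

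The supply genes were also occupied throughout. Ugdh and Ugp2, which make UDP-glucuronic acid and its precursor, had 40.3 and 30.8 for Mta2, 34.0 and 32.2 for Mbd3 and 55.7 and 57.1 for Zbtb7a. All 4 genes of that group and all 7 of sulfate donor supply held all 3 factors. Papss2, a PAPS synthase, had 30.9, 26.1 and 32.1. Next to it for Mta2 was Slc26a1 (23.7), a sulfate transporter, and for Mbd3 and Zbtb7a Slc35b2 (23.1 and 31.4), the Golgi PAPS transporter. All genes of donor supply were thus occupied, while 6 of the 8 Sult2a genes, whose enzymes use PAPS, had no peak.

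Of 9 other conjugation and Nrf2 target enzymes, 8 held all 3 factors. Txnrd1, a thioredoxin reductase, had 42.0, 32.0 and 37.3, and Nqo1, a quinone reductase, had 33.0, 35.7 and 32.1. The 5 conjugate exporters all held all 3 factors. Abcg2 was the highest of them with 33.9, 36.1 and 55.6, followed by Abcc4 with 29.0, 25.5 and 32.7. Both encode pumps of the apical membrane of the proximal tubule.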

How the data were processed

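Chromatin from kidney cortex was immunoprecipitated for Mta2, Mbd3 or Zbtb7a after crosslinking with 2 mM DSG and 1% formaldehyde and sequenced to a stated depth of 100 M read pairs, per the labels' protocols. Bowtie2, deepTools, MACS2, bedtools and the mm10 build are named in the submitters' processing notes, and how they were set is not given in the sources used here. Each deposited list gives, per peak, the authors' fold over background, a ratio, the authors' −log10 q-value and the deposited summit offset, a position. The lists have no column names, so the narrowPeak layout was assumed. No label says whether the mice were pooled as reads or as peaks, and how Input entered is not given.

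Summits (interval start plus offset) were assigned to RefSeq GRCm38.p6 genes, which share coordinates with mm10, by position within 1 kb, using Python 3.11.15, pandas 2.3.3 and NumPy 2.4.6. Promoter windows came from the RefSeq table and were aligned with Biopython 1.88. Figures used matplotlib 3.10.9. Counting was tested on simulated intervals. The members and the pathway lists were chosen with earlier results of these data known, and CpG and motif counts were added after the files were seen. Named in each family were the member of highest fold per factor, members with 1 or 2 factors, members with none, members in the highest 5% and, in clusters, starts with and without a summit. Of the pathway list, the 2 highest per group and factor and those with no peak were named, and a gene that this rule names is not reported here. Alternatives covered the window, the peak threshold, summits shared between members, overlap and ranking. No p-value was computed. The peak lists hold no expression values, so the tissue label could not be checked by marker genes.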

Additional observations from a re-analysis of the deposited data

How the results depend on the processing

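Of 265 recomputed values, 249 stayed within the set tolerance and 16 moved, and the labels used had no class for a reversal. The tolerance for counts was wide: members with no peak rose from 10 to 15 with a window of 0 bp and were labelled as unchanged. With peaks of −log10 q of at least 10, members with no peak rose from 10 to 16, and with a fold of at least 5 to 21. Inside genes only (0 bp), Gstp members with Mta2 and with Mbd3 fell to 1 each and other Sult members with Mbd3 to 3, as also with fold of at least 5. Sult2 members with Mta2 fell to 1 under either threshold, and those with Mbd3 and Zbtb7a to 1 under the fold threshold. Requiring reciprocal overlap of 50% gave 68.8% of Mta2 peaks with Zbtb7a, 87.6% and 79.1% of Mbd3 peaks with Mta2 and Zbtb7a, and 76.3% and 79.6% of Zbtb7a peaks with Mta2 and Mbd3. With −log10 q of at least 10 in both lists, 97.4% of Zbtb7a peaks overlapped Mbd3. By construction, the thresholds remove peaks, the 0 bp setting shortens gene windows and reciprocal overlap narrows what counts as a match. No paired analysis was possible because each list stands for both mice and holds no value per mouse, and for the same reason no replicate was left out. What depth limits could not be measured from these lists, which give no read depth.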
